A study of Mus musculus with 141 samples.

Results

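Liver and lung of the same mice were compared by RNA-seq. The animals came from 47 Collaborative Cross (CC) strains, inbred lines that were bred as mosaics of a shared set of founder strains. The members are the 47 liver and 47 lung libraries, chosen by their tissue label and paired by their strain label, and make up 94 libraries of the study, whose other 47 libraries were kidney. Each strain was represented by 1 male mouse, so a strain is also an animal and nothing separates the strain from the individual. All mice were adults of 8 to 12 weeks, ate the NTP 2000 diet, spent 6 hours a day on weekdays for 2 weeks in chambers with clean air, and were anaesthetised with 100 mg/kg of nembutal before whole organs were taken. No mouse carried an engineered allele or received a test agent. RNA with an integrity number of at least 7 was depleted of ribosomal RNA, so libraries hold total RNA of all cells of the organ, blood and attached tissue included. The sequencing batch is not among the labels used here, so no value could be computed within a batch.

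Each organ is a mixture of cell types, and its transcripts can be read by the cells that are known to make them. Hepatocytes fill most of the liver, secrete the proteins of plasma and carry the enzymes of nitrogen, sugar, lipid and drug metabolism. They share the organ with bile duct cells (cholangiocytes), the fenestrated endothelium of the sinusoids, resident macrophages (Kupffer cells) and vitamin A-storing stellate cells. The lung is built of thin alveolar type 1 cells, surfactant-producing type 2 cells, a ciliated and secretory airway lining, a very dense capillary bed, elastic connective tissue, smooth muscle, mesothelium and many blood-derived cells. Genes were therefore grouped into 49 lists by cell of origin or by function. The lists held 1072 symbols, of which 1001 different genes were measured, 784 were abundant enough to be tested, and 59 stood in more than 1 list.

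Total expected counts ran from 1738046 to 42158454 per liver library (median 10423382) and from 2829104 to 17585682 per lung library (median 9338124). The precursor of ribosomal RNA, *Rn45s*, took a median of 34.9% of liver counts and 18% of lung counts. Counts of *Lars2*, a mitochondrial tRNA synthetase gene, took medians of 9.31% and 6.62%. They ran from 0.0196% to 21.3% over livers and from 0.0473% to 22.1% over lungs, and whether they come from its messenger RNA was not tested. Outside these 2 genes a median of 4562946 counts remained in liver and 5231076 in lung. A gene with at most 3 counts in a library was treated as not resolved there. At the median library 3 counts were equal to 0.288 CPM (counts scaled to a library of fixed size) in liver and to 0.321 CPM in lung. Such floors are on library totals, before the scaling used for the levels below, and cover counting error only. Levels below are CPM after trimmed-mean (TMM) scaling between libraries, and fold changes are log2 of liver over lung from limma-voom, fitted with the mouse as a block, with Benjamini-Hochberg adjusted p (q). A gene was called at q ≤ 0.1 where it also differed by 1 or more on the log2 scale in either direction. By this rule 2901 of 12127 tested genes (23.9%) were called higher in liver and 3763 (31%) higher in lung, and these shares are the background for every list below. The ranges of the 47 liver and 47 lung libraries did not overlap for 14% of tested genes on the side of liver and for 12.1% on the side of lung. The median log2 fold change over all genes was -0.06. Without TMM, on total counts, it moved to -1.43, and genes and lists whose direction turned under that or another scaling are named as such beside their values.

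The 4 marker genes separated the libraries by their tissue labels in all 94 cases. *Serpina1c*, an alpha-1 antitrypsin of plasma, ran from 35.6 to 4876 CPM in liver (median 2427) and from 0 to 20.4 CPM in lung (median 0.536). *Tat*, tyrosine aminotransferase of the hepatocyte, ran from 816 to 6925 CPM in liver (median 1507) and from 0.133 to 13.1 CPM in lung (median 1.08). Both were higher in liver in 47 of 47 mice, and their ranges did not overlap (log2 fold change 11.48, SE 0.28, and 10.58, SE 0.20). *Scgb1a1*, the secretoglobin of club cells, ran from 2835 to 10510 CPM in lung (median 6026) and from 0.388 to 86.5 CPM in liver (median 12.8). *Cxcl15*, the chemokine lungkine of lung epithelium, ran from 185 to 926 CPM in lung (median 449) and from 0 to 8.48 CPM in liver (median 0.912). Both were higher in lung in 47 of 47 mice without overlap (log2 fold change -9.25, SE 0.21, and -9.05, SE 0.19, with q at most 1.8e-61 for the 4 genes). *Serpina1c* has near-identical neighbours, so its reads could be divided among copies by the counting.

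A few livers stood apart by genes of other tissues, which are named here because their values were seen to be high. The liver of CC031 held skeletal muscle transcripts, with 825 CPM of *Myh1* and 352 CPM of *Ckm* against medians of 3.10 and 1.55 over livers. In the liver of CC068 pancreatic lipase, *Pnlip*, reached 572 CPM, where the median was 0.227, and the secretory granule gene *Chgb* reached 312 CPM in the liver of CC006 with a median of 0. The liver of CC016 held the most macrophage and antigen presentation transcripts, such as 573 CPM of *Lyz2* and 179 CPM of *Cd74*. Without these 4 mice, a setting chosen after the data were seen, 33 of the 49 lists had the same counts of called members, no count moved by more than 2, and 0 list medians changed sign. The liver of CC035, not among these 4, had the most of the kidney gene *Kap*, at 579 CPM, with the next liver at 478 CPM and a median of 19.9.

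**Figure D1:**
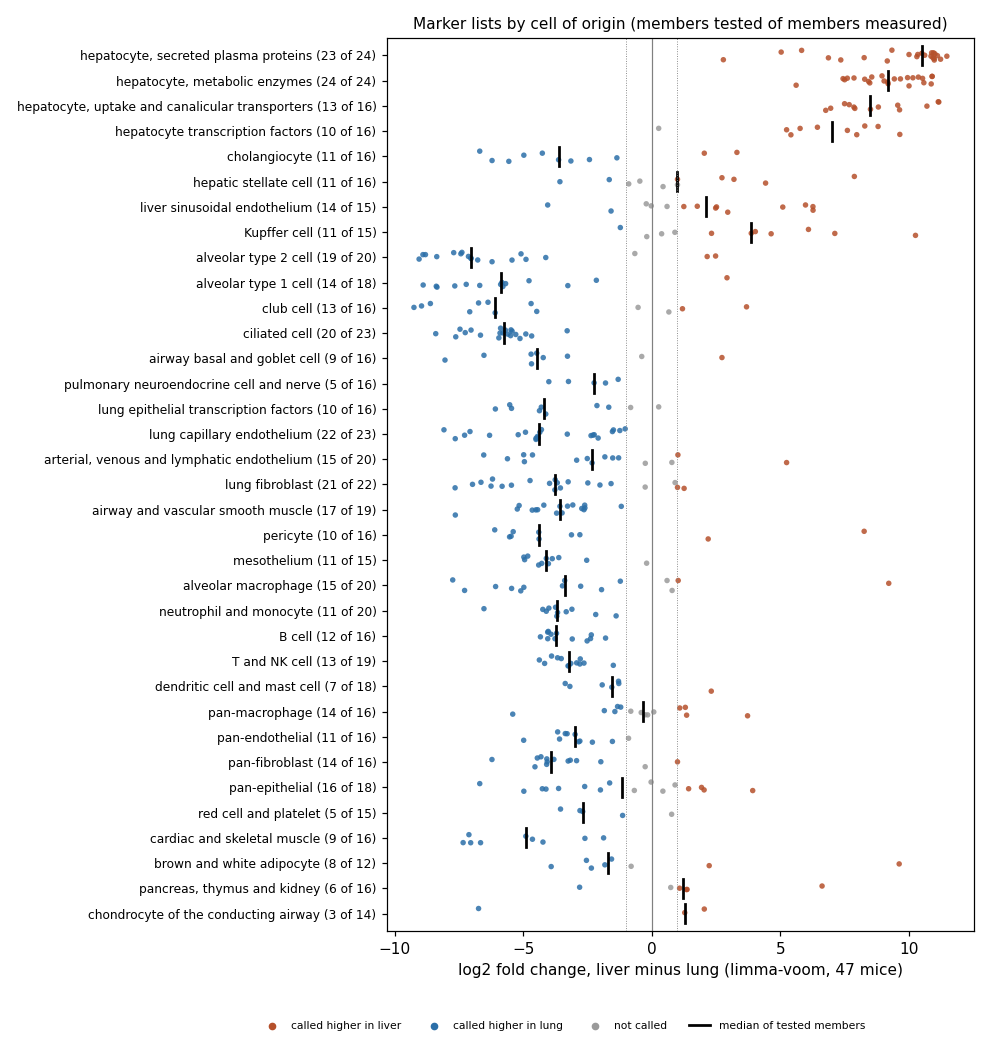
Log2 fold changes of the tested members of 35 lists by cell of origin (points, liver minus lung) with the median of each list (black bar). The 4 hepatocyte lists have medians of 7.03 to 10.51, the alveolar, club and ciliated cell lists of -7.03 to -5.75, while sinusoidal endothelium, Kupffer cell and pan-macrophage lists spread on both sides of 0, and the medians of the stellate, pancreas and chondrocyte lists turned below 0 on total counts.

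Hepatocyte genes were higher in liver almost without exception. All 23 tested plasma proteins, all 24 enzymes, all 13 transporters and 9 of 10 transcription factors were called higher in liver, against 23.9% of all genes, with medians of 10.51, 9.19, 8.51 and 7.03 on the log2 scale. In bulk tissue fewer cells of a type and less RNA per cell cannot be told apart, here or in any result that follows. Counts of the 24 plasma protein genes summed to 13.9% to 27.5% of the counts outside *Rn45s* and *Lars2* in liver (median 19.5%) and to 0.0550% to 0.374% in lung (median 0.0988%). Albumin, *Alb*, ran from 35463 to 154061 CPM in liver (median 75760) and from 0.801 to 422 CPM in lung (median 35.5). The transferrin gene *Trf*, whose product carries iron in blood, ran from 14865 to 42460 CPM in liver (median 25726) and from 121 to 498 CPM in lung (median 228). Its difference was therefore much smaller than that of albumin (log2 fold change 6.87, SE 0.083, against 10.99, SE 0.25), and no lung was near 0.

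The enzymes and transporters were as clear cut. *Cps1*, which starts the urea cycle, ran from 5653 to 16055 CPM in liver (median 10072) and from 0.156 to 97.7 CPM in lung (median 4.67). *Slco1b2*, an uptake carrier for organic anions in the sinusoidal membrane, ran from 1536 to 3700 CPM in liver (median 2592) and from 0 to 24.1 CPM in lung (median 1.20), where 7 libraries had at most 3 counts. *Slc38a4*, an amino acid carrier, kept a level in every lung, from 5.33 to 50.9 CPM (median 10.2), beside 1498 to 2589 CPM in liver (median 1972, log2 fold change 7.50). The transcription factor *Onecut2* ran from 149 to 404 CPM in liver (median 271) and stayed at or under 3 counts in 20 lungs (median 0.306 CPM). *Prox1*, a factor of hepatocytes and of lymphatic endothelium, ran from 61.2 to 177 CPM in liver (median 104) and from 1.42 to 6.41 CPM in lung (median 2.67). The exception among the factors was *Foxa1*, at 8.12 to 33.9 CPM in liver (median 21.2) and 11.3 to 29.9 CPM in lung (median 16.4), with overlapping ranges and a log2 fold change of 0.27 (SE 0.077) that turned below 0 on total counts and in DESeq2. *Foxa3*, its relative, ran from 35.3 to 97.3 CPM in liver (median 66.8) and from 0 to 1.17 CPM in lung (median 0.275).

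Hepatocyte genes were counted at low levels in lung, while lung epithelial genes varied more in liver. Among the 50 hepatocyte genes with 1 annotated transcript and at least 100 CPM in liver, the median lung level was 0.0221% to 2.56% of the median liver level (median over genes 0.116%), and 33 of them were under 0.2%. *Alb* in lung was at 0.0468% of its liver level, *Cps1* at 0.0464% and *Trf* at 0.887%, and *Prox1* and *Fah*, a tyrosine breakdown enzyme, exceeded 1%. Among 30 genes of lung epithelium chosen the same way, the liver level was 0% to 633% of the lung level (median 0.772%), 2 genes were under 0.2% and 13 were over 1%, and the level was higher in liver than in lung for *Hc* (633%), *Scd1* (427%), *Aldh1a1* (227%) and *Cyp2f2* (150%), of which *Aldh1a1* and *Cyp2f2* turned toward lung on total counts. The lungs of CC010 and CC015 had the highest sums of plasma protein, enzyme or transporter genes. Whether the low levels come from cells of the organ, from blood or from reads of other libraries was not tested.

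Promoters of the plasma protein genes are shown because their members moved together and because HNF1, a factor of the hepatocyte, is known to bind letters that a search can count. In the 250 bases before and 50 after the start of 17496 genes with a RefSeq promoter on GRCm38.p6, the letters GTTAAT, a part of the HNF1 site, were present on either strand for 7.10%. They were present for 7 of 18 plasma protein genes with a promoter (38.9%), and the 6 of these that were tested had log2 fold changes of 8.26 to 11.48. The longer HNF1 palindrome was present for 0 of the 18. The letters were not particular to hepatocyte genes. They were present for 4 of 14 hepatocyte factors (28.6%), 2 of 16 enzymes (12.5%) and 1 of 13 transporters (7.69%). Shares were 27.3% for club cell genes and 28.6% for genes of pancreas, thymus and kidney. The 250 bases before the start of *Serpina1c* (chr12:103904951-103905200, minus strand) and *Alb* (chr5:90460620-90460869, plus strand) are printed with these letters in capitals, beginning 27 and 32 bases before the start. These are reference letters, not those of the strains, on another build than the files use, and a match is no evidence of binding.
Serpina1c: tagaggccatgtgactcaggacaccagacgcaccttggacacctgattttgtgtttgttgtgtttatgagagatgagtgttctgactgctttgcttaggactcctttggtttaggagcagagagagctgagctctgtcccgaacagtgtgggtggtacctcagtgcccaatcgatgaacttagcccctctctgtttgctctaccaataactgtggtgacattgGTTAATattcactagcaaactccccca
Alb: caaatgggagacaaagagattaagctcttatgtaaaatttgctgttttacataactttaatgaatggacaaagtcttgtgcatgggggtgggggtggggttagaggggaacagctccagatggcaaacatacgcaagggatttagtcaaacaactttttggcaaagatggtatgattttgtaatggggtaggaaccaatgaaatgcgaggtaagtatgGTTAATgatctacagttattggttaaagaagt

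The other lists of liver cells did not follow the hepatocyte. Of 11 tested genes of the cholangiocyte list, 9 were called higher in lung and 2 in liver, with a median of -3.63. Without the abundance filter it was 9 and 4 of 16 (median -1.92), and on total counts the median was -4.98. *Krt7*, a keratin of ducts and of lung epithelium, ran from 0 to 3.04 CPM in liver (median 0.925) and from 65.1 to 151 CPM in lung (median 105). The chloride channel gene *Cftr* ran from 0 to 2.18 CPM in liver (median 0.296, with 32 livers at or under 3 counts) and from 8.49 to 54.8 CPM in lung (median 18.7). *Pkhd1*, the fibrocystin of bile duct and kidney cilia, went the other way, at 21.6 to 132 CPM in liver (median 36.6) and 0.843 to 10.3 CPM in lung (median 3.41, log2 fold change 3.31, SE 0.13, no overlap). *Sox9*, a factor of ducts and of cartilage, was called higher in liver at low levels, with medians of 2.04 and 0.416 CPM and overlapping ranges (log2 fold change 2.04). *Krt7* and *Cftr* are also known from lung epithelium.

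Among stellate cell genes, 5 of 11 were called higher in liver, 2 in lung and 4 not called, around a median of 1.0 that fell to -0.48 on total counts, where 4 were called on each side. *Colec10*, a collectin, separated the organs, at 40.7 to 138 CPM in liver (median 82.6) and a median of 0.273 CPM in lung. *Lrat*, the enzyme that esterifies retinol in stellate cells, had 16.5 to 86.5 CPM in liver (median 39.2) and 13.4 to 199 CPM in lung (median 73.7), and its log2 fold change of -0.90 (SE 0.12) did not reach the fold threshold here but did on total counts, with DESeq2 size factors and in DESeq2. *Des*, the intermediate filament of stellate and muscle cells, was called higher in lung, with medians of 97.5 CPM in lung and 5.65 CPM in liver and the highest liver, CC031, at 170 CPM. *Bmp5* was called higher in lung as well (log2 fold change -1.65), at 29.8 to 98.9 CPM there and 12.8 to 36.8 CPM in liver.

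Endothelial genes were found on both sides, by vessel type. In the sinusoidal list 9 of 14 genes were called higher in liver, 2 higher in lung and 3 neither, while all 22 lung capillary genes were called higher in lung, against 31% of all genes. Of this list *Stab2*, a scavenger receptor for hyaluronan, separated the organs, at 78.1 to 365 CPM in liver (median 205) and 0.402 to 10.8 CPM in lung (median 2.96, log2 fold change 5.98, SE 0.13, q = 1e-67). Its paralog *Stab1* did not separate the organs, at 81.0 to 176 CPM in liver (median 117) and 74.4 to 184 CPM in lung (median 120, log2 fold change -0.02, SE 0.058, q = 0.73), with 23 mice higher in liver and 24 in lung, although on total counts it was called higher in lung. *Lyve1*, a hyaluronan receptor of sinusoids and of lymphatic vessels, was lower in liver in 47 of 47 mice, at 1.41 to 33.9 CPM (median 9.96) beside 46.2 to 659 CPM in lung (median 151, log2 fold change -4.05, SE 0.14). *Mrc1*, the mannose receptor of sinusoidal and macrophage cells, had medians of 138 CPM in liver and 94.6 CPM in lung and a log2 fold change of 0.59 that turned to -0.77 on total counts. *Rspo3*, an enhancer of Wnt signals released by central vein endothelium, was called higher in liver at low levels (medians 8.54 and 1.07 CPM, log2 fold change 2.96, no overlap), and *Wnt2* was called higher in lung (medians 5.32 CPM in liver and 15.9 CPM in lung).

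Genes of endothelium in general were mostly higher in lung, with 10 of 11 called and a median of -2.98, and the list took a median of 0.0289% of counts in liver and 0.466% in lung. The VEGF receptor *Kdr* ran from 83.6 to 176 CPM in liver (median 124) and from 219 to 474 CPM in lung (median 374), a modest difference without overlap (log2 fold change -1.53, SE 0.042). *Vwf*, von Willebrand factor, differed far more, at 8.40 to 27.2 CPM in liver (median 17.1) and 259 to 1194 CPM in lung (median 481, log2 fold change -4.98, SE 0.085), and the junction gene *Cdh5* had medians of 39.3 and 449 CPM. Within the capillary list *Ptprb*, a phosphatase of endothelial junctions, kept 235 to 471 CPM in liver (median 304) beside 881 to 1774 CPM in lung (median 1347), so its log2 fold change was -2.09. *Thbd*, the thrombin receptor of the vessel wall, ran from 2.51 to 13.6 CPM in liver (median 5.77) and from 277 to 662 CPM in lung (median 436, log2 fold change -6.31), and *Calcrl*, the adrenomedullin receptor, from 30.9 to 87.5 and from 641 to 1439 CPM (log2 fold change -4.35). Of 15 genes of larger vessels and lymphatics 11 were called higher in lung, and these included *Efnb2*, the arterial ephrin, with medians of 5.79 CPM in liver and 136 CPM in lung. The 2 called higher in liver were *Prox1*, described above, and *Car8*, a carbonic anhydrase relative with medians of 170 CPM in liver and 81.8 CPM in lung, whose log2 fold change of 1.02 turned to -0.36 on total counts.

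**Figure D2:**
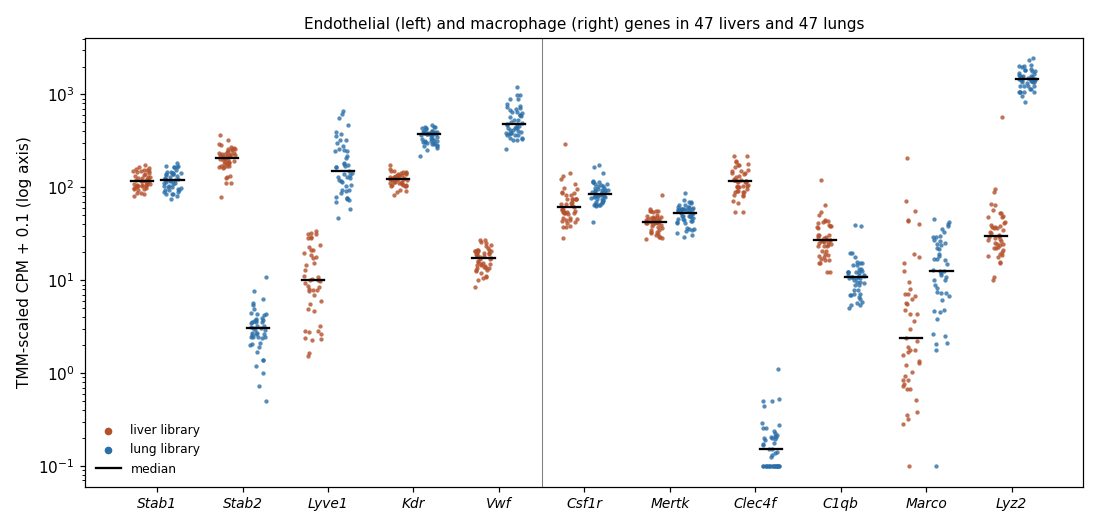
TMM-scaled CPM plus 0.1 on a log axis for 5 genes of endothelial lists and 6 of macrophage lists in each liver and lung library. Medians are black bars. *Stab1*, *Csf1r* and *Mertk* have overlapping ranges at similar medians, *Stab2* and *Clec4f* are higher in every liver, and *Lyve1*, *Kdr*, *Vwf* and *Lyz2* in every lung.

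Macrophage genes were also divided. Of 14 shared macrophage genes 4 were called higher in liver, 5 in lung and 5 neither (median -0.34), but on total counts 1 was called higher in liver and 10 in lung (median -1.70). *Csf1r*, the receptor for the macrophage growth factor, ran from 28.8 to 292 CPM in liver (median 60.7) and from 42.1 to 176 CPM in lung (median 84.7, log2 fold change -0.41), and *Mertk*, a receptor for the uptake of dying cells, from 27.9 to 81.7 and from 29.2 to 87.8 CPM (log2 fold change -0.26). Neither reached the fold threshold with TMM, and both did on the side of lung on total counts. The complement genes *C1qb* and *C1qc* were called higher in liver (log2 fold changes 1.36 and 1.31) with overlapping ranges, but at 0.03 on total counts neither was called. Lysozyme, *Lyz2*, had the largest change toward lung in the list, at 838 to 2459 CPM in lung (median 1474). In liver it had 10.02 to 573 CPM (median 30.1), where the next highest liver after CC016 had 96.9 CPM. Which cells of the lung hold *Lyz2* was not tested, so its level there cannot be assigned to macrophages.

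Of 11 Kupffer cell genes 7 were called higher in liver, 1 in lung and 3 neither, around a median of 3.87. *Clec4f*, a lectin known from Kupffer cells, ran from 54.0 to 216 CPM in liver (median 117), while 43 of 47 lungs had at most 3 counts and the highest lung had 1.01 CPM. *C6*, a complement component, ran from 105 to 2089 CPM in liver (median 439) and from 12.6 to 91.6 CPM in lung (median 30.9), and the iron exporter *Slc40a1* from 179 to 433 and from 5.54 to 25.7 CPM. Hepatocytes are known to express both, so these values are not of Kupffer cells alone. *Marco*, a scavenger receptor of macrophages in both organs, was called higher in lung by a small margin, at 0 to 205 CPM in liver (median 2.31) and 0 to 45 CPM in lung (median 12.6), and was higher in liver in 12 mice. Of 15 alveolar macrophage genes 11 were called higher in lung, with a median of -3.39. *Chil3*, a chitinase-like protein, varied widely among lungs, from 0.831 to 1508 CPM (median 183), against 0 to 17 CPM in liver. *Fabp1*, a fatty acid binding protein listed for alveolar macrophages, was far higher in liver (2000 to 6693 CPM) than in lung (1.60 to 52.0 CPM), and its hepatocyte level set the sum of the list, which was larger in liver.

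Blood-derived cells were mostly on the side of lung. All 11 tested neutrophil and monocyte genes, all 12 B cell genes and all 13 T and NK cell genes were called higher in lung, with medians of -3.69, -3.74 and -3.23. Measured members numbered 20, 16 and 19, and the rest did not pass the abundance filter. A gene scarce in liver could pass that filter through other organs alone, so the filter has a part in these counts, as in other lists. *Ms4a1*, the B cell surface protein CD20, had medians of 11.7 CPM in lung and 0.662 CPM in liver. *Il7r*, the interleukin 7 receptor of T cells, ran from 5.0 to 26.2 CPM in lung (median 11.7) and from 0 to 3.85 CPM in liver (median 0.634), and was lower in every liver. *Ccr2*, the monocyte chemokine receptor, had a median of 29.6 CPM in lung and 2.19 CPM in liver and reached 35.1 CPM in the highest liver. Of 7 dendritic and mast cell genes 6 were called higher in lung, and *Bst2*, an antiviral membrane protein, was called higher in liver (medians 73.8 and 13.4 CPM, log2 fold change 2.31). Counts of red cell and platelet genes were low in both organs, at most 0.00270% of the counts outside *Rn45s* and *Lars2* in liver and 0.0171% in lung. Whether the counting of uniquely aligned reads lowered them was not tested. Only 5 of 15 measured members were tested, and 4 of these were called higher in lung. The platelet chemokine *Pf4* had medians of 4.45 CPM in lung and 0.490 CPM in liver.

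Lung epithelium was the mirror of the hepatocyte lists, with a few members that the liver shares. Of 19 type 2 cell genes 16 were called higher in lung and 2 in liver (median -7.03), of 14 type 1 cell genes 13 and 1 (median -5.86), and of 13 club cell genes 9 and 2 (median -6.09). Surfactant protein C, *Sftpc*, ran from 2307 to 5450 CPM in lung (median 3120) and from 0.358 to 69.6 CPM in liver (median 8.17). *Slc34a2*, the phosphate carrier of type 2 cells, ran from 959 to 2131 CPM in lung (median 1322), and the highest liver reached 122 CPM beside a median of 4.97. The 2 type 2 cell genes on the side of liver were *Scd1*, the desaturase that makes oleate, at 569 to 23844 CPM in liver (median 5021) and 497 to 2889 CPM in lung (median 1176), and *Hc*, complement C5, with medians of 1569 and 248 CPM. These shared genes weigh on the sums, so that the list took 0.151% to 3.04% of counts in liver and 1.89% to 3.71% in lung. *Sec14l3*, a lipid transfer protein, had medians of 1101 CPM in lung and 2.23 CPM in liver, and *Emp2*, a membrane protein of type 1 cells, of 649 and 9.69 CPM.

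In the club cell list the drug-metabolising members stood out. *Cyp2f2*, a cytochrome of club cells, was abundant in liver, at 739 to 3017 CPM (median 1423), and in lung, at 451 to 1591 CPM (median 948), and its log2 fold change of 0.66 turned to -0.70 on total counts. *Aldh1a1*, a retinal dehydrogenase, was called higher in liver (medians 1645 and 724 CPM, log2 fold change 1.19), and it turned to -0.19 on total counts. *Sult1d1*, a sulfotransferase, was called higher in liver as well, with medians of 172 and 13.2 CPM. *Cbr2*, a carbonyl reductase, was the opposite, at 706 to 2044 CPM in lung (median 1258) and 0.194 to 11.5 CPM in liver (median 2.68).

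The promoters of type 2 cell genes were searched for CTCAAG, the core of sites bound by NKX2-1, a factor of lung epithelium. The letters were present for 5 of 16 type 2 cell genes with a promoter (31.3%) and 5 of 11 club cell genes (45.5%), beside 17.1% of all genes, and also for 6 of 15 genes of cardiac and skeletal muscle (40%). The 5 type 2 cell genes had log2 fold changes of -9.05 to -6.21. Surfactant protein genes *Sftpa1* (chr14:41131538-41131787, plus strand) and *Sftpb* (chr6:72304360-72304609, plus strand) are shown over the 250 bases before the start with the core in capitals, beginning 166 bases before the start in the former and 100 and 15 bases before it in the latter. *Sftpa1* ran from 802 to 3008 CPM in lung (median 1517) and from 1.85 to 37.3 CPM in liver. *Sftpb*, chosen after its values were seen, has more than 1 annotated transcript and counted a median of only 57.6 CPM in lung.
Sftpa1: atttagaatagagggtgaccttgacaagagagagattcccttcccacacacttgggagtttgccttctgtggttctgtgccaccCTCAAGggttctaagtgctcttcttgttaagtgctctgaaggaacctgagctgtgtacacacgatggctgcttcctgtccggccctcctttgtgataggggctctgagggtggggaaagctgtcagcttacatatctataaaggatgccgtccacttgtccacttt
Sftpb: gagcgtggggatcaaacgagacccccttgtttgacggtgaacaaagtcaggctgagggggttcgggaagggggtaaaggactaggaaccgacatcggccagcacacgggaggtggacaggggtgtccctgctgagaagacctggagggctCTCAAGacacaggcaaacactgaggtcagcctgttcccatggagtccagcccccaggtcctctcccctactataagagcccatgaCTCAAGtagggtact

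Ciliated cells gave a uniform list. All 20 tested genes were called higher in lung, 17 of them without overlap, where 12.1% of all genes had none, and the median was -5.75. *Tppp3*, a microtubule protein, ran from 48.9 to 188 CPM in lung (median 127) and from 0 to 8.94 CPM in liver (median 0.703). *Dnah9*, an axonemal dynein, ran from 30.2 to 143 CPM in lung (median 61.9) and from 0 to 1.28 CPM in liver, where 36 libraries had at most 3 counts. *Dnah5*, another axonemal dynein, overlapped between the organs, since the liver of CC028 reached 83.0 CPM while the liver median was 1.44 and lungs ran from 52.9 to 237 CPM. The list took 0.0933% to 0.270% of counts in lung and 0.0004% to 0.00966% in liver.

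RFX factors drive cilia genes and bind the letters GTTGCC, read as GGCAAC on the other strand. They were present for 11 of 18 ciliated cell genes with a promoter (61.1%) against 13.9% of all genes, and the 8 tested members had log2 fold changes of -8.40 to -5.29. The promoters of *Hydin* (chr8:110266727-110266976, plus strand) and *Cdhr3* (chr12:33092876-33093125, minus strand), a central pair protein of cilia and a cadherin of ciliated cells, were printed as the most abundant members that held the letters, a choice made after their values were seen. Lung levels were 30.7 to 115 CPM (median 61.3) for *Hydin* and 12.1 to 50.9 CPM (median 25) for *Cdhr3*, and the median was 0 in liver for both. The capitals mark the letters, which begin 13 and 6 bases before the start.
Hydin: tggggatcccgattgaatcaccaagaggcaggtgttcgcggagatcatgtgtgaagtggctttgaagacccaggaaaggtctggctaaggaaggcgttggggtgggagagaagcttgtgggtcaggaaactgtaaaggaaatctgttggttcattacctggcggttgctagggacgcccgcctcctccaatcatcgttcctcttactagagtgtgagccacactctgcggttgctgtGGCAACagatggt
Cdhr3: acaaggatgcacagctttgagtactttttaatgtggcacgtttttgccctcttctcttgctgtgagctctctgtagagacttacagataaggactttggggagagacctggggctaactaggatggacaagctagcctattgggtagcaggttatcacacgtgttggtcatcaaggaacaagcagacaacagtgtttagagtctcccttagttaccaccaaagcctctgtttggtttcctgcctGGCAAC

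Secretory and other minor cells of the airway were less uniform. Of 9 basal and goblet cell genes 7 were called higher in lung (median -4.47), and the mucin *Muc5b* ran from 9.21 to 339 CPM in lung (median 116) with 36 livers at or under 3 counts. *Ltf*, the lactoferrin of mucous glands and neutrophils, spread from 1.09 to 488 CPM among lungs. Only 5 of 16 genes of neuroendocrine cells and nerve were abundant enough to be tested, and all 5 were called higher in lung (median -2.24), but without the abundance filter 7 of 15 were called higher in lung and 2 in liver (median -0.80). Among the 5 was the synaptic vesicle gene *Syp* at medians of 2.82 and 1.03 CPM. Of 10 transcription factors of lung epithelium 8 were called higher in lung (median -4.21), such as *Etv5*, a factor of type 2 cells, at 62.4 to 164 CPM in lung and 0 to 11.8 CPM in liver. *Tfcp2l1*, a factor of ducts, was nearer to even, with medians of 55.4 and 17.1 CPM in lung and in liver (log2 fold change -1.67).

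**Figure D3:**
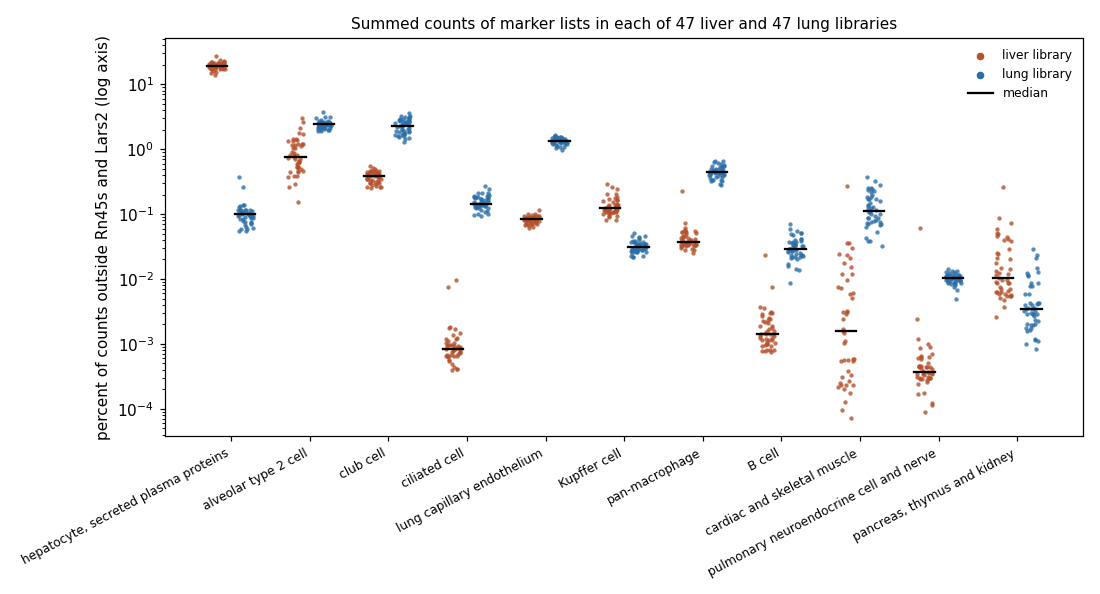
Summed counts of 11 lists in each library, as percent of the counts outside *Rn45s* and *Lars2* on a log axis, with medians as black bars. Plasma protein genes hold a median of 19.5% in liver and 0.0988% in lung, muscle genes run from 7.15e-05% to 0.273% over livers, and a liver far above the rest stands out for neuroendocrine genes (CC006, 0.0612%), macrophage genes (CC016, 0.225%) and pancreas genes (CC068, 0.260%).

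Connective tissue and muscle belonged to the lung. Called higher in lung were 17 of 21 lung fibroblast genes, 12 of 14 general fibroblast genes, all 17 smooth muscle genes, 8 of 10 pericyte genes and 10 of 11 mesothelial genes, with medians between -4.39 and -3.57. *Mfap4*, a protein of elastic fibres, ran from 41.1 to 417 CPM in lung (median 111) and from 0 to 4.67 CPM in liver (median 0.762). *Inmt*, an indole methyltransferase, was shared, at 420 to 1316 CPM in lung (median 883) and 11.7 to 905 CPM in liver (median 263), and 3 mice had more in liver. Collagen genes were present in liver but lower, with medians of 47.5 and 393 CPM for *Col3a1* and of 4.08 and 78.9 CPM for *Col1a1*, and 1 liver had more *Col3a1* than the lung of its mouse. *Acta2*, smooth muscle actin, ran from 69.4 to 376 CPM in lung (median 124) and from 1.46 to 76.0 CPM in liver (median 5.32). *Mylk*, the myosin light chain kinase of smooth muscle and many other cells, differed by less (medians 345 and 158 CPM, log2 fold change -1.19). *Notch3*, a receptor of mural cells, had medians of 105 and 4.97 CPM, and *Msln*, mesothelin, of 37.2 and 1.84 CPM. Of the 2 pericyte genes called higher in liver, *Vtn*, vitronectin, is also a plasma protein of hepatocytes, with medians of 2712 CPM in liver and 8.71 CPM in lung, and *Rgs5* has more than 1 annotated transcript, with 104 and 20.3 CPM.

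Genes of heart and skeletal muscle were called higher in lung for all 9 tested members (median -4.90). Myocardium is known to extend along the pulmonary veins of mice, though its part in these values, or that of attached heart tissue, was not tested. The atrial light chain *Myl7* was found in every lung, at 8.11 to 162 CPM (median 54.1), but at no more than 1.70 CPM in liver. *Ryr2*, the calcium release channel of heart, ran from 30.9 to 274 CPM in lung (median 101) and from 0 to 14.4 CPM in liver (median 0.485). *Myh7*, the slow myosin, had medians of 62.8 and 0.747 CPM, but the highest liver reached 143 CPM. Skeletal myosin *Myh1* behaved otherwise, since it exceeded 10 CPM in 19 livers and 25 lungs and was higher in liver in 20 mice, so that its call (log2 fold change -1.87, SE 0.51, q = 0.00047) rests on libraries spread from 0 to 825 CPM in liver and from 0 to 470 CPM in lung. Adipocyte genes were divided, with 5 of 8 called higher in lung and 2 in liver, and *Adipoq* ran from 0.285 to 31.4 CPM in lung and from 0 to 20.7 CPM in liver, while *Elovl3*, a fatty acid elongase, was a liver gene at 11.3 to 629 CPM (median 183) beside a lung median of 0.129 CPM. Of 6 tested genes of pancreas, thymus and kidney 4 were called higher in liver, with a median of 1.22 that turned to -0.05 on total counts, where 1 was called on each side. *Cela1*, an elastase, was present in every liver, at 1.91 to 338 CPM (median 39.5), and *Kap*, an androgen-dependent gene of kidney, ran from 1.57 to 579 CPM in liver (median 19.9) and from 0.400 to 90.5 CPM in lung (median 9.77). Of 3 cartilage genes *Cytl1* was called higher in lung, at 6.69 to 57.8 CPM with 46 livers at or under 3 counts, and *Sox9* and *Hapln1* were called higher in liver, *Hapln1* turning to -0.10 on total counts, with a list median of 1.28 that turned to -0.10 on total counts and -0.29 without *Rn45s* and *Lars2*.

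Medians of the 14 lists by function ran from -3.79 to 2.77. The highest was that of peroxisomes, the organelles of very long chain fat and ether lipid metabolism, where 27 of 32 genes were called higher in liver, 2 in lung and 3 neither (median 2.77). *Cat*, catalase, ran from 2881 to 5528 CPM in liver (median 4217) and from 117 to 306 CPM in lung (median 205, log2 fold change 4.44, SE 0.036, q = 1.1e-104). *Phyh*, which breaks down phytanic acid, ran from 813 to 3702 CPM in liver (median 2075) and from 19.5 to 52.2 CPM in lung (median 31.9, log2 fold change 6.06). The exceptions were *Agps*, an enzyme of ether lipid synthesis, at 26.4 to 68.1 CPM in liver and 36.4 to 111 CPM in lung (log2 fold change -1.20, higher in lung in 47 of 47 mice), and *Abcd2*, an importer of very long chain fats, at medians of 10.6 and 30.8 CPM. Mitochondrial import and chaperone genes had 22 of 28 called higher in liver and 0 in lung (median 1.95), and the chaperones *Hspd1* (medians 640 and 65.2 CPM) and *Hspa9* (742 and 99.7 CPM) were higher in every liver. On total counts 18 peroxisome genes and 9 mitochondrial import genes were still called higher in liver, with medians of 1.40 and 0.59.

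The secretory route was also on the side of liver. In the list of translocation, folding and export at the endoplasmic reticulum (ER), 29 of 36 genes were called higher in liver, 0 in lung and 7 neither, and 23 of them did not overlap (14% of all genes). *P4hb*, a protein disulfide isomerase, ran from 1233 to 2423 CPM in liver (median 1779) and from 211 to 393 CPM in lung (median 257, log2 fold change 2.75, SE 0.033). The chaperones *Hsp90b1*, at 685 to 2223 and 246 to 639 CPM, and *Calr*, at 630 to 1522 and 154 to 317 CPM, differed by 1.64 and 2.04 on the log2 scale. *Sar1b*, the coat GTPase of chylomicron and lipoprotein export, differed most among genes of 1 transcript that were named (medians 172 and 20.1 CPM, log2 fold change 3.12). The median of the list was 1.55, and 0.18 on total counts, where 4 genes were called. N-glycosylation genes divided more, with 14 of 27 called higher in liver, 1 in lung and 12 neither, and a median of 1.01 that turned to -0.35 on total counts, where 1 was called higher in liver and 8 in lung. *Man1a*, a mannosidase of the Golgi, was higher in every liver (medians 314 and 43.4 CPM), and *Tusc3*, a subunit of the oligosaccharyltransferase, was called higher in lung (medians 12.1 CPM in liver and 31.9 CPM in lung).

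The ER stress element, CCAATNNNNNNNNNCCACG, is known from promoters of ER chaperones and was found for 30 of 17496 promoters (0.171%). In the ER list it was found for 6 of 32 promoters (18.8%), all of genes called higher in liver by 1.26 to 2.23 on the log2 scale. The 250 bases before *Hsp90b1* (chr10:86705445-86705694, minus strand) and *Calr* (chr8:84846932-84847181, minus strand) are printed with the fixed letters of the element in capitals, with the free letters between them in lower case. *Hsp90b1* holds it on both strands, from 212 and 107 bases before the start, and *Calr* on the other strand, from 162 bases.
Hsp90b1: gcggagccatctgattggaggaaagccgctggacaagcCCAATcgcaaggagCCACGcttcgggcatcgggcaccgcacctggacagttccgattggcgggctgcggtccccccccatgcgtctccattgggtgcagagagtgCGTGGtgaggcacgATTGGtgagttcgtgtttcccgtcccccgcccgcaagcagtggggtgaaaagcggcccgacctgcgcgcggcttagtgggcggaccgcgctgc
Calr: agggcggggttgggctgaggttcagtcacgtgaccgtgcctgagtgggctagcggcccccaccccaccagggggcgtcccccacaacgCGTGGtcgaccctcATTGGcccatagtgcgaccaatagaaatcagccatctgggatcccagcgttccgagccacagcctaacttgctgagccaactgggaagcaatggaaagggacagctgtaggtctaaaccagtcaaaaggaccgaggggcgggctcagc

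**Figure D4:**
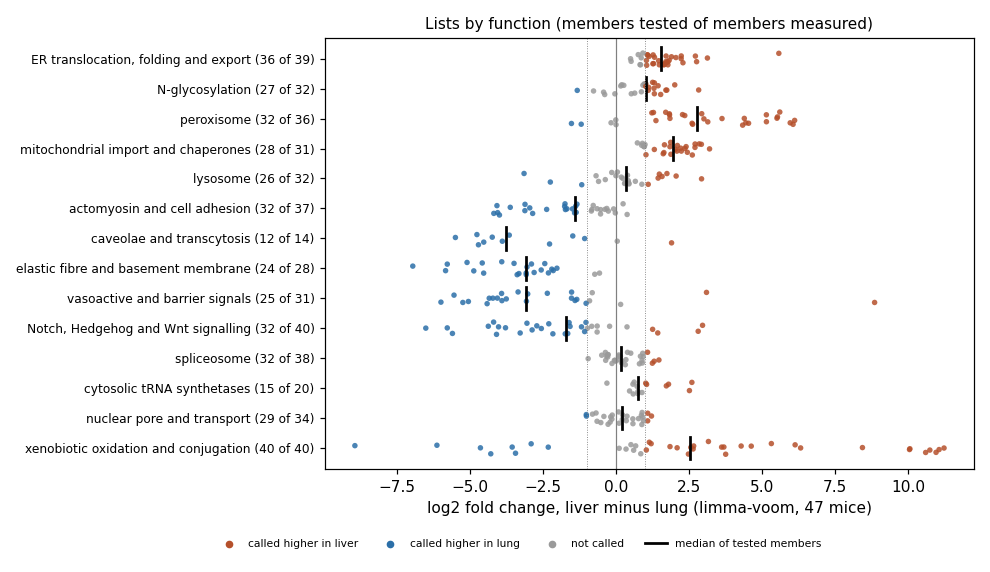
Log2 fold changes of the tested members of 14 lists by function (points, liver minus lung) with the median of each list (black bar). Peroxisome and mitochondrial import genes lie to the right of 0 at medians of 2.77 and 1.95, caveolar and matrix genes to the left at -3.79 and -3.09, and the medians of N-glycosylation, lysosome, spliceosome, tRNA synthetase and nuclear pore genes, all between 0 and 1.01, turned below 0 on total counts.

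Genes of cell shape, matrix and vessel tone were on the side of lung. Of 32 actomyosin and adhesion genes 19 were called higher in lung and 0 in liver (median -1.41, with 31 in lung on total counts), of 12 caveolar genes 10 and 1 (median -3.79), of 24 genes of elastic fibre and basement membrane 22 and 0 (median -3.09), and of 25 vasoactive genes 20 and 2 (median -3.08). *Actb*, cytoplasmic actin, was higher in lung in 47 of 47 mice, at 1117 to 2381 CPM beside 584 to 1462 CPM in liver, but its log2 fold change of -0.79 passed the fold threshold only with DESeq2 size factors, in DESeq2 and on total counts among the alternatives listed. *Iqgap1*, a scaffold of the cell cortex, differed most among the actomyosin genes named (medians 32.7 and 621 CPM, log2 fold change -4.20, SE 0.059). *Ptrf*, cavin 1, ran from 5.59 to 50.8 CPM in liver and from 156 to 559 CPM in lung, while *Fcgrt*, the receptor that recycles albumin and antibodies, was called higher in liver (medians 165 and 44.8 CPM). The collagen chains *Col4a3* and *Col4a4* of the alveolar basement membrane had medians of 276 and 149 CPM in lung and 4.15 and 2.46 CPM in liver (log2 fold changes -5.79 and -5.85), and the chain *Col4a2*, found in most basement membranes, differed by less (438 and 40.8 CPM, -3.40). *Bmpr2*, a receptor of the BMP family in vessels, ran from 720 to 1612 CPM in lung (median 1108) and from 97.4 to 172 CPM in liver (median 137). *Pde5a*, which degrades cyclic GMP in vascular muscle, had medians of 257 and 4.65 CPM, and the precursor and receptor of angiotensin, *Agt* and *Agtr1a*, were called higher in liver (medians 519 and 1.07 CPM, and 64.8 and 7.73 CPM).

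Developmental signals were mostly lung-sided too, with 22 of 32 genes called higher in lung and 4 in liver (median -1.71). *Notch1* ran from 111 to 313 CPM in lung and from 26.9 to 73.1 CPM in liver, and *Hey1*, a Notch target, from 17.5 to 44.3 CPM and from 0 to 2.95 CPM. *Wnt3a* was counted in every lung, at 3.18 to 18.6 CPM (median 10.4), and was at or under 3 counts in all 47 livers. The genes on the side of liver belonged to Wnt and R-spondin signalling: *Lgr5* had medians of 7.14 and 0.939 CPM and *Rnf43* of 30.2 and 10.4 CPM, with *Rspo3* described above, and the receptor *Fzd8*, named to complete the 4, had a log2 fold change of 1.24 that turned to -0.14 on total counts.

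With TMM the other lists held few calls or calls on both sides. Of 26 lysosomal genes 7 were called higher in liver, 3 in lung and 16 neither, around a median of 0.34 that turned to -1.02 on total counts, where 1 was called higher in liver and 13 in lung. *Ctsl*, a cathepsin, was higher in every liver (medians 832 and 109 CPM, log2 fold change 2.92), and *Npc2*, a cholesterol carrier, was lower in every liver (68.3 and 331 CPM, -2.26). *Ctsd*, an aspartyl cathepsin, was near even (medians 403 and 362 CPM), at a log2 fold change of 0.17 that turned below 0 on total counts, with DESeq2 size factors and in DESeq2. In the spliceosome list 28 of 32 genes were not called (median 0.16), and in the nuclear pore list 24 of 29 were not (median 0.21), and both medians turned below 0 on total counts, with DESeq2 size factors and in DESeq2. On total counts 20 of the spliceosome genes and 18 of the nuclear pore genes were called higher in lung and 0 in liver. *Sf3b1*, a core splicing factor, ran from 213 to 321 CPM in liver and from 175 to 358 CPM in lung. Of 15 cytosolic tRNA synthetases 6 were called higher in liver and 0 in lung, around a median of 0.74 that turned to -0.61 on total counts (2 called in liver and 1 in lung), and *Tars*, for threonine, had the largest change of those named (medians 161 and 27.9 CPM, log2 fold change 2.59).

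Drug and toxin metabolism showed both organs. Of 40 genes 26 were called higher in liver, 8 in lung and 6 neither (median 2.51). *Cyp1a2* ran from 241 to 886 CPM in liver with 29 lungs at or under 3 counts, and *Cyp2c29* and *Ugt2b1*, members of families with close copies, had lung medians of 1.06 and 0.478 CPM beside 2094 and 1306 CPM in liver. On the side of lung were *Fmo2*, a flavin monooxygenase (medians 652 and 27.1 CPM, log2 fold change -4.66), and *Cyp2s1* (56.1 and 0.681 CPM, -6.15), with *Cbr2* of club cells.

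Pairs of genes, many of them forms of an enzyme or carrier, were compared by the share of the pair's TPM that came from the first gene. TPM is the deposited length-scaled value. Some pairs, such as *Clec4f* with *Marco* and *Krt18* with *Krt7*, are not forms of the same enzyme or carrier. A share within a library does not depend on the scaling between tissues. Of 44 pairs listed, 43 were compared, with the gene taken as the liver form written first by construction. For 39 pairs the share was higher in liver at an unadjusted p ≤ 0.05 and for 0 in lung (2-sided sign-flip permutation test over mice, 100000 resamples). For 36 pairs p was 1e-05, the smallest the permutations can give. Pairs were chosen with earlier results of these data known, so these p-values are not independent evidence. In 19 pairs both genes have 1 annotated transcript, and for 15 of these the ranges of liver and lung did not overlap and all 47 mice had the higher share in liver.

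Glucose handling showed wide differences among these pairs. *Slc2a2*, the low affinity glucose transporter, held 94.7% to 99.4% of its pair with *Slc2a1* in liver (median 98.5%) and 0% to 34.9% in lung (median 6.69%), a mean difference of 90.2 ± 7.27 percentage points (SD over 47 mice). *Slc2a1* itself was near even, with medians of 9.61 and 10.5 CPM (log2 fold change -0.23). For glycogen synthase, by contrast, both genes moved, and *Gys2* held a median of 98.9% in liver and 3.02% in lung beside *Gys1* (log2 fold changes 9.41 and -2.04). *Pygl* held a median of 99.1% of glycogen phosphorylase in liver and 42.5% in lung, and *Pck1* 99.9% and 58.7% of phosphoenolpyruvate carboxykinase. *Mat1a* held 96.8% of methionine adenosyltransferase in liver and 6.17% in lung, although *Mat2a* was not called (log2 fold change -0.52).

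Membrane and structural pairs differed as well. *Abcb4*, the phosphatidylcholine exporter of bile, held a median of 99.0% in liver and 6.14% in lung beside the drug exporter *Abcb1a*. *Cdh2* held 51.2% to 93.3% of its pair with *Cdh1* in liver (median 73.9%) and 1.18% to 8.44% in lung (median 2.76%), with *Cdh1* at medians of 56.5 CPM in liver and 212 CPM in lung. *Krt18* held 99.5% in liver and 33.3% in lung beside *Krt7*. *Foxa3* held 66.5% to 92.9% beside *Foxa1* in liver and 0% to 12.3% in lung. *Clec4f* of Kupffer cells and *Marco* were widely spread within liver, at 37.4% to 100% (median 97.5%, 46 mice, since 1 had no count of either gene in an organ), against 0% to 6.63% in lung.

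Among the other pairs *Cpt1a* held at least 97.4% in every library of both organs (mean difference 0.589 ± 0.488 percentage points), although *Cpt1a* itself was called higher in liver (log2 fold change 2.18). *Sod1* held a median of 99.4% in liver and 85.5% in lung beside the extracellular *Sod3*, without overlap. *Fbp1* held a median of 31.2% in lung beside *Fbp2*, scattered from 12.7% to 100%, and at least 99.4% in every liver (mean difference 57.6 ± 25.5 percentage points), and in lung *Fbp2* had at most 3 counts in 6 libraries.

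**Figure D5:**
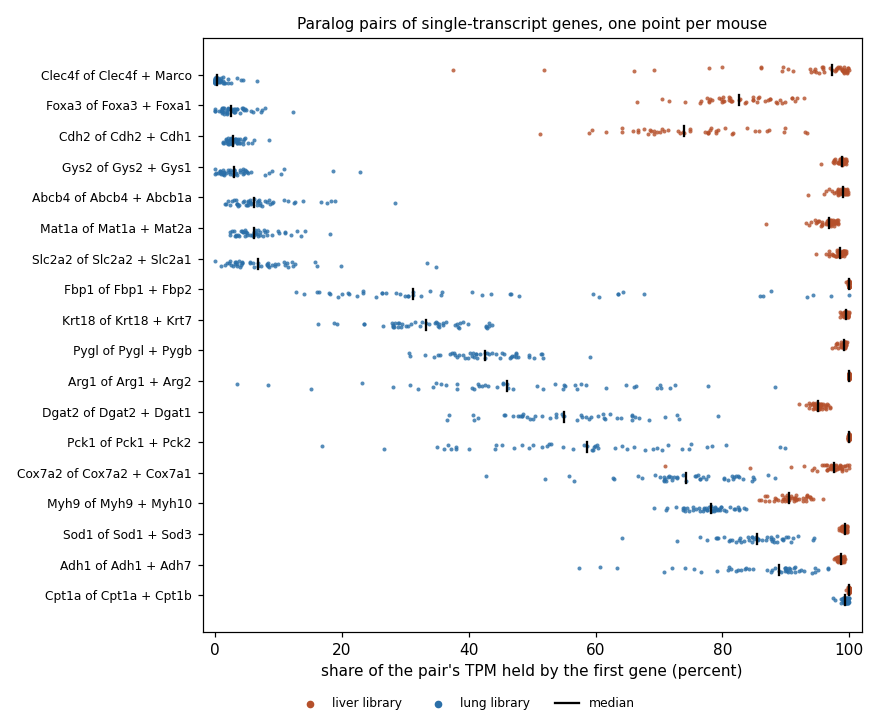
Share of the pair's TPM held by the first gene, in percent, for 18 pairs of genes with 1 transcript each, with a point for each mouse and organ and medians as black bars. Liver medians are at 73.9% or more, with single livers of *Cdh2*, *Foxa3* and *Clec4f* as low as 51.2%, 66.5% and 37.4%, while lung medians run from 0.326% to 99.4%.

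General epithelial genes were divided between the organs. Of 16 tested genes 4 were called higher in liver, 8 in lung and 4 neither (median -1.16), and on total counts 1 and 10 were (median -2.54). The keratins *Krt8* and *Krt18* were higher in every liver (medians 206 and 78.8 CPM, and 183 and 47.5 CPM), and so was the claudin *Cldn1* (122 and 7.51 CPM, log2 fold change 3.93). *Krt8* was at 0.08 on total counts and was not called there.

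The within-mouse difference was very even for some genes and erratic for others. Among genes with at least 100 CPM in both organs, *Ctnna1*, the alpha catenin, had the smallest SD, at 0.139 on the log2 scale over 47 mice, with 151 to 219 CPM in liver and 327 to 477 CPM in lung (log2 fold change -1.14, SE 0.028). *Nsd1*, a histone methyltransferase, came next (SD 0.147), with 46 of 47 mice higher in lung by a mean of 0.256. At the other end *Krt4*, a keratin of stratified epithelium such as the oesophagus, had an SD of 6.06. It exceeded 10 CPM in 4 livers and 21 lungs, its medians were 0.314 and 1.16 CPM, and its highest values were 978 CPM in the liver of CC041 and 1896 CPM in the lung of CC059. *Ryr1*, the calcium release channel of skeletal muscle, exceeded 10 CPM in 11 livers and 21 lungs. What these libraries share beyond such transcripts was not tested.

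Small differences were common across the transcriptome. Of the 12127 tested genes 3068 had an absolute log2 fold change under 0.5, and 4628 passed q ≤ 0.1 but not the fold threshold. Of the called genes 2675 differed by less than 2 on the log2 scale, and 480 differed by more than 5 toward liver and 402 toward lung. In 47 of 47 mice 2529 genes were higher in liver and 2614 in lung. Genes with several annotated transcripts passed the abundance filter less often (32.2% against 55.5% of genes with 1 transcript), and 3 of them that were picked after their values were seen, *Cav1*, *Ace* and *Hnf4a*, known from caveolae, lung capillaries and hepatocytes, had medians of only 7.38 and 8.46 CPM in lung and 14.6 CPM in liver. The study counted uniquely aligned reads, and whether reads shared by several transcripts of a gene were left out was not tested. Levels of such genes may be understated and their lists lose members to the filter.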

How the data were processed

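RNA-seq of whole liver and lung of 47 Collaborative Cross mice was analysed, with kidney libraries entering the fit only. The authors filtered single-end 50-base reads and quantified them with RSEM and STAR 2.5.3a on pseudo-genomes made for each strain from Build37 (mm9) with RefSeq annotation. The expected count of each gene and library that the authors deposited was rounded to whole numbers. The TPM that the authors deposited, scaled by transcript length and library, was used for shares of gene pairs, and the FPKM that the authors deposited was not used.

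The fit covered the 12127 genes that exceeded 1 CPM in 30% or more of the libraries of all 3 organs and was made with limma-voom (limma 3.58.1, edgeR 4.0.16 for TMM, R 4.3.3) with strain and tissue as covariates. The strain is the replicate block, since the tissues of a strain come from the same mouse. Livers and lungs of the same mouse deviated together from their tissue means, with a median r across genes of 0.166 (0.00827 to 0.327) against -0.00482 between different mice. The paper's methods name a q of 0.01 and its results 0.1, and its batch covariate was not used because no batch is among the labels. With this block, p-values of the fit reflect how tissue differences scatter among mice of different strains, and the kidney libraries enter that scatter. Those of the gene pairs reflect the scatter of the within-mouse difference in share.

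The gene lists, the pairs and the rule for naming genes were chosen with earlier results of these data known, so no list is independent evidence. Named genes are the markers, in each list the 3 most abundant members in its tissue and up to 3 called the opposite way (for lists of both tissues the 3 largest changes each way), the genes of the pairs, and the 5 steadiest and 6 most variable genes. Any other gene is named because of its values, and a few genes that the rule covers are not reported here. Of the pairs, 1 was not analysed here because a symbol was not found. Alternatives were edgeR's quasi-likelihood test, the DESeq2 1.42.0 Wald test and size factors, total counts, other filters and thresholds, liver and lung alone, no block, and mice left out.

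Promoter sequences are RefSeq on GRCm38.p6 and were found for 744 of the 1001 listed genes. The 11 motifs searched on both strands were GTTAAT and the HNF1 palindrome GTTAATNATTAAC that contains it, the FOXA core TGTTTAC, the C/EBP palindrome TTGCGCAA, the NKX2-1 core CTCAAG, the RFX core GTTGCC and the RFX pair GTTGCCATGGCAAC that contains it, the ER stress element, the PPAR element AGGTCANAGGTCA, TATAAA and the CArG box. Python 3.11.15, numpy 2.4.6, pandas 2.3.3 and matplotlib 3.10.9 were used.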

Additional observations from a re-analysis of the deposited data

How the results depend on the processing

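Scaling decided the balance of the calls, 43.5% of which were higher in liver. On total counts without TMM 1186 genes were higher in liver and 7465 in lung (13.7% in liver), because the median of all genes moved to -1.43, while DESeq2 size factors gave 2410 and 4233 (36.3%, median -0.30) and DESeq2 2407 and 4285 (36%). Without the low-count filter 6986 genes were higher in liver and 12144 were called in all (57.5% in liver, of 22652 genes), and without the fold threshold 5470 were higher in liver and 5822 in lung, 11292 in all. The other settings stayed within 1.5 times the counts, among them no replicate block (2870 and 3823), edgeR (2865 and 3830), q ≤ 0.01 (2900 and 3762) and the tissues alone (2812 and 4127). So did the leaving out of CC010, CC015 and CC033, the mice with the highest levels of marker genes of 1 organ in the other (2868 and 3845). Of the genes called both in the fit reported and in an alternative, 0 had opposite directions under any of them. Without the block 39 pairs still had the higher share in liver, and with at least 10 counts in every library 24 of 26 did. Of 49 lists 42 had the same counts of called members without the block. The steps behind the following turns were not separated, so the cause was not tested beyond the shift of the median given above. On total counts *Aldh1a1* turned to -0.19, *Car8* to -0.36, *Ctsd* to -1.19, *Cyp2f2* to -0.70, *Foxa1* to -1.15, *Fzd8* to -0.14, *Hapln1* to -0.10 and *Mrc1* to -0.77. The list medians turned to -0.48 for stellate cells, -0.053 for pancreas, thymus and kidney, -0.10 for cartilage, -0.35 for N-glycosylation, -1.02 for the lysosome, -1.20 for the spliceosome, -0.61 for cytosolic tRNA synthetases and -1.16 for the nuclear pore. With DESeq2 *Ctsd* turned to -0.065, *Foxa1* to -0.040, the spliceosome median to -0.094 and the nuclear pore median to -0.036, and with its size factors *Ctsd* turned to -0.071 and these medians to -0.081 and -0.035. Without *Rn45s* and *Lars2* the cartilage median turned to -0.29.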
